A study of Homo sapiens with 6 samples.

Results

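Peaks of RNA bound by SF3B4 were examined in 6 chaperone genes: HSP90AA1 and HSP90AB1, HSPA8, HSPA5, HSPA9 and HSPD1. The genes were given by name, with 2 of the HSP90, 3 of the HSP70 and 1 of the HSP60 family, and a peak was taken as theirs when its midpoint lay inside the gene on the gene's strand. This rule gave 11 of the 3660 peaks in the SF3B4 list and 0 of the 270 peaks in the list for G4PID, and the 6 genes are among 19940 protein-coding genes of the annotation.

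The series mapped protein-bound RNA by eCLIP, in which a protein is precipitated with the RNA it touches, in HEK293T, a human embryonic kidney line. SF3B4 was precipitated with an antibody against itself, and G4PID with an antibody against HA, with 2 libraries each, beside 2 libraries of input without antibody. G4PID is an artificial enzyme that attaches biotin near G-quadruplexes and was carried on the plasmid pIRES2-G4PID-EGFP. The labels describe transfection with that plasmid or with pIRES2-miniTurboID-EGFP, followed by biotin at 500 μM for 30 min, in the same words for every library, so which of these treatments the SF3B4 and input cells received is not settled. The authors' data are 1 peak list per antibody, without a header. The values of each peak were read, by column order and range, as a −log10 p-value and a log2 fold over input. No value per library was given, so there is no spread between replicates and no test between samples, and the read depth is unknown. All positions are on hg38.

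Chaperones help other proteins to fold and keep them from clumping. HSP90 proteins act late in the folding of kinases and receptors in the cytosol, HSP70 proteins bind short unfolded stretches in several compartments, and HSP60 forms a closed barrel in mitochondria. Their precursor RNAs carry introns that must be spliced, and SF3B4 belongs to SF3b, a part of the U2 snRNP that settles on the branch point just upstream of the 3' splice site. Some introns also carry a small nucleolar RNA (snoRNA), which is released after splicing and in most cases guides chemical modification of ribosomal RNA.

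The sequences around both HSPA8 peaks are given first, because HSPA8 was the only one of the 6 genes whose bound introns could be read from annotated transcripts that retain them. Each is written 5' to 3' on the minus strand, ends with the last base of the intron, and has the SF3B4 peak in capitals. The end of intron 4 lies at chr11:123060029-123060090, and the end of intron 6, from the base after the snoRNA SNORD14D, at chr11:123058831-123058908. The matching stretch of intron 5, from the base after the snoRNA SNORD14C at chr11:123059262-123059334, held no peak and is shown for comparison.
HSPA8 intron 4: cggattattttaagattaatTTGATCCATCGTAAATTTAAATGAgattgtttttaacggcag
HSPA8 intron 6: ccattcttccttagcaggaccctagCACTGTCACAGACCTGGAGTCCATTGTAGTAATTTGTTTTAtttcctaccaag
HSPA8 intron 5: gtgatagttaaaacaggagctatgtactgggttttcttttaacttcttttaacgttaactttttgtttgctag

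An SF3B4 peak was present in 5 of the 6 genes, against 9.36% of all protein-coding genes, and HSPA5 had none. The 6 genes were chosen with earlier results of these data known, so this share describes them and is no test of enrichment. More than 1 peak was found in HSPA9 (3), HSPD1 (3), HSP90AB1 (2) and HSPA8 (2), which is 4 of the 5 genes with a peak, against 43.9% of all genes with one. All 11 peaks had their midpoint in an intron. No G4PID peak was found in any of the 6 genes, and 0.507% of protein-coding genes had one, so at that background a count of 0 among 6 genes carries no information on them. The lists hold only peaks past the authors' thresholds, so HSPA5 is not shown to be unbound.

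The authors' log2 folds of the 11 peaks ran from 3.53 to 6.01 with a median of 4.20, and the other 3649 SF3B4 peaks had a median of 3.93 with quartiles of 3.51 and 4.55. The strongest peaks lay in HSP90AB1, HSPA8 and HSPD1, and those in HSPA9 intron 3 (3.53) and HSP90AB1 intron 2 (3.76) lay below the median of the other peaks. The member peaks were narrow, 24 to 55 nt wide with a median of 39 nt, whereas the other peaks had a median of 71 nt and quartiles of 45 and 98 nt. Their −log10 p-values had a median of 14.3 (5.08 to 17.2), and those of the other peaks a median of 8.94. In 10 of the 11, the same pair of fold and p also stood at other peaks of the list, as it did for 88.5% of the remaining peaks. RNA amounts were not measured here, and their part in the fold over input was not tested.

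**Figure D1:**
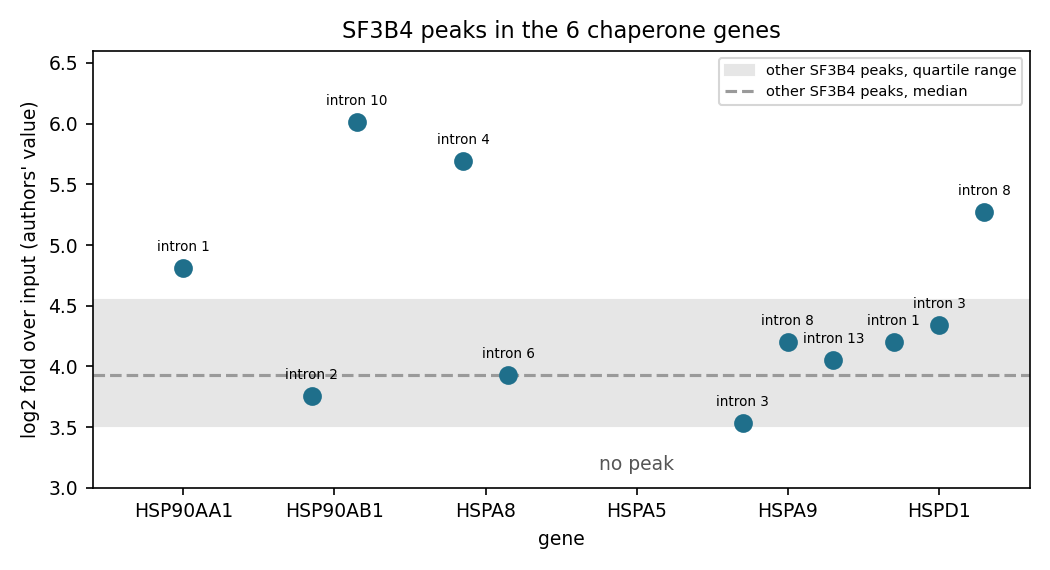
Each point is 1 SF3B4 peak, placed by gene and by the authors' log2 fold over input, with the intron that holds its midpoint; the grey band and dashed line give the quartiles (3.51 and 4.55) and median (3.93) of the other peaks. The peaks in HSP90AB1 intron 10, HSPA8 intron 4, HSPD1 intron 8 and HSP90AA1 intron 1 stand above the band, and HSPA5 has no peak.

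HSP90AA1 and HSP90AB1 encode the stress-inducible and the constitutive cytosolic HSP90. HSP90AB1 (ENSG00000096384.19, chromosome 6, 44246166 to 44253888, plus strand) had the strongest peak of the set, at 44253001 to 44253031 in intron 10, with a log2 fold of 6.01 (64.5-fold) and a −log10 p-value of 15.7. By fold it ranked 42 among the 3660 SF3B4 peaks. A weaker peak (3.76, rank 2124) lay at 44249331 to 44249369 in intron 2. HSP90AA1 (ENSG00000080824.18, chromosome 14, 102080738 to 102139699, minus strand) had 1 peak, at 102086383 to 102086426 in intron 1, with a log2 fold of 4.81 and rank 572. Its acceptor opens the exon with the start codon.

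Both HSP90 genes interrupt their coding sequence at nearly the same places, which allows their introns to be matched. In this way 10 intron positions were shared by the 2 genes. The first pair, intron 1 of each gene, lies before the start codon and has no phase. It was paired because 0 coding bases precede it in both genes. The remaining pairs had the same phase, and their coding positions differed by 15 to 24 bases, under a limit of 30 bases. No shared position had a peak in both genes. Bound introns were few, 1 of 10 in HSP90AA1 and 2 of 11 in HSP90AB1, against 8.78% over all genes with a peak. At such shares, the lack of a position bound in both carries no information on the pair. HSP90AA1 had its peak in intron 1, where HSP90AB1 had none. HSP90AB1 had its peaks in introns 2 and 10, whose partners in HSP90AA1, introns 2 and 9, had none. The lengths at these positions were 607 nt in HSP90AA1 and 550 nt in HSP90AB1 for intron 1. For the second shared position the lengths were 92 nt in HSP90AA1 and 600 nt in HSP90AB1, and for the ninth they were 589 nt in HSP90AA1 and 777 nt in HSP90AB1. At each of these positions the bound intron was the longer of the pair, which describes a few positions and was not tested. Intron 3 of HSP90AB1, of 91 nt, had no partner and no peak.

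HSPA8 encodes the constitutive cytosolic HSP70, HSPA5 the HSP70 of the endoplasmic reticulum (BiP) and HSPA9 that of mitochondria (mortalin). In HSPA8 (ENSG00000109971.13, chromosome 11, 123057489 to 123063230, minus strand), 2 of 8 introns were bound. The peak in intron 4, at 123060047 to 123060070, had a log2 fold of 5.69 (51.6-fold, rank 96) and was the narrowest of the set at 24 nt, in an intron of only 87 nt. The peak in intron 6, at 123058843 to 123058883, had a log2 fold of 3.93 (rank 1796). Both stretches are also exonic in non-basic transcripts annotated with a retained intron or a longer exon, so reads from those transcripts cannot be told apart from reads of the intron.

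HSPA9 (ENSG00000113013.13, chromosome 5, 138553756 to 138575724, minus strand) had 3 peaks of modest fold. They lay in intron 3 (138571167 to 138571197, log2 fold 3.53), intron 8 (138566729 to 138566783, 4.20) and intron 13 (138557590 to 138557620, 4.05). The first had the lowest fold and, at 5.08, the lowest −log10 p-value of the 11. As rounded, that is also the lowest −log10 p-value in the whole SF3B4 list. The fold and p of this peak were shared with 51 other peaks of the list. HSPA5 (ENSG00000044574.7, chromosome 9, 125234853 to 125241330, minus strand), with 7 introns of 89 to 986 nt, had no peak in either list.

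HSPD1 encodes mitochondrial HSP60. It (ENSG00000144381.16, chromosome 2, 197486581 to 197516737, minus strand) had the largest share of bound introns, 3 of 11. The peaks lay in intron 8 (197489263 to 197489298, log2 fold 5.27, rank 207), intron 3 (197495387 to 197495435, 4.34) and intron 1 (197498862 to 197498904, 4.20). Intron 1 ends at the exon with the start codon, as in HSP90AA1. Of the 4 members with an intron at that place, 2 had a peak there. Over all genes with an SF3B4 peak, 48 of 648 such introns were bound (7.41%, 95% Wilson interval 5.63 to 9.68%). The members' last introns had no peak in any of the 6 genes, including HSPA5, which had no peak at all. The share of bound last introns over all genes with a peak was 7.78%. Both of these places were looked at after the peaks had been seen.

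The position within the intron was much the same from gene to gene. Of the 11 peaks, 10 lay with their midpoint 10 to 60 nt before the nearest annotated acceptor, the first exon base after an intron (90.9%, with a 95% Wilson interval of 62.3 to 98.4% for counting error only), against 2414 of 3469 other peaks in coding genes with a splice site (69.6%, 68.0 to 71.1%). The 10 midpoints lay between 26 and 41 nt upstream, with a median of 33 nt, and those of the other peaks in that stretch had a median of 31 nt and quartiles of 22 and 39 nt. No peak reached into the exon. The closest, in HSP90AA1 intron 1, ended 4 nt before it, and the farthest of the 10, in HSPA9 intron 3, ended 25 nt before it. The exception was HSPA9 intron 13, whose peak had its midpoint 109 nt and its downstream end 93 nt from the exon.

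**Figure D2:**
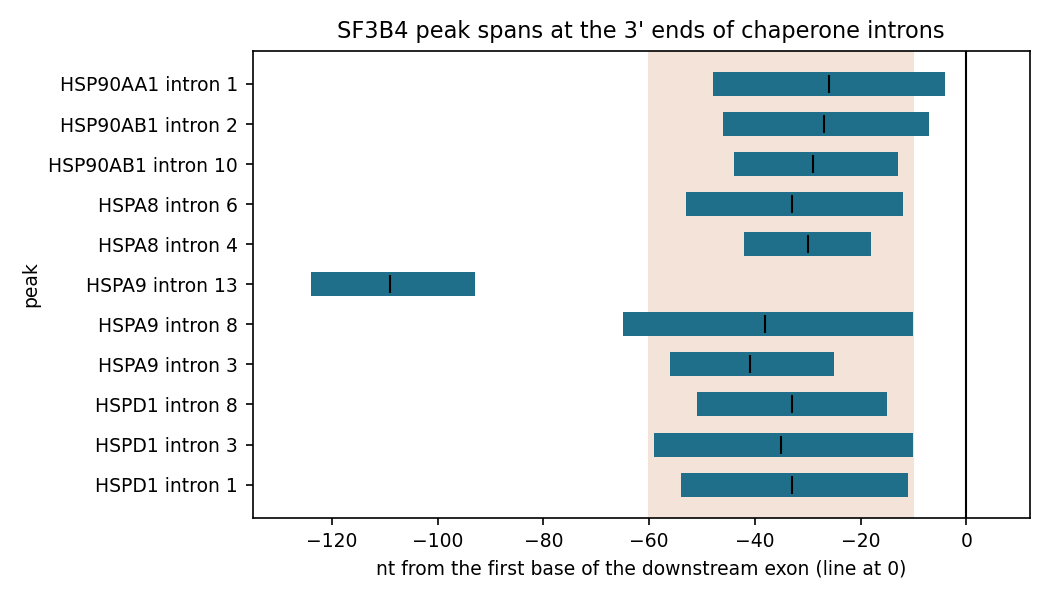
Each bar is the span of 1 SF3B4 peak in nt from the first base of the downstream exon (vertical line at 0), the tick is its midpoint and the shaded stretch is 10 to 60 nt upstream. The midpoints of 10 peaks fall in the shaded stretch, and that of HSPA9 intron 13 lies 109 nt upstream.

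Only a minority of the introns of these genes had a peak at their 3' end. Over the reference transcripts, 10 of 63 introns were bound in this sense (15.9%, 95% Wilson interval 8.86 to 26.8%). The share was 1.33% over the introns of all protein-coding genes and 8.78% over those in genes with an SF3B4 peak. The 63 include the 7 introns of HSPA5, whereas the 8.78% leaves out genes without a peak. Because the 6 genes were chosen with earlier results known, these shares are a description. By gene the count was 1 of 10 in HSP90AA1, 2 of 11 in HSP90AB1, 2 of 8 in HSPA8, 0 of 7 in HSPA5, 2 of 16 in HSPA9 and 3 of 11 in HSPD1. The bound introns were 87 to 2621 nt long with a median of 692 nt, and the 53 unbound introns 87 to 4836 nt with a median of 326 nt. Over 500 nt were 7 of the 10 bound and 19 of the 53 unbound introns. Over all genes with a peak the order was the other way round, with a median of 561 nt in 2505 bound and 867 nt in 26011 unbound introns. The lengths overlapped throughout, and neither difference was tested. Within the coding sequence, 7 of the 8 bound and 28 of the 51 unbound introns of the 6 genes fell between codons. Over all genes with a peak the shares were 47.9% of bound and 48.9% of unbound introns, and with 8 bound introns the count in the 6 genes is given as a description only.

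**Figure D3:**
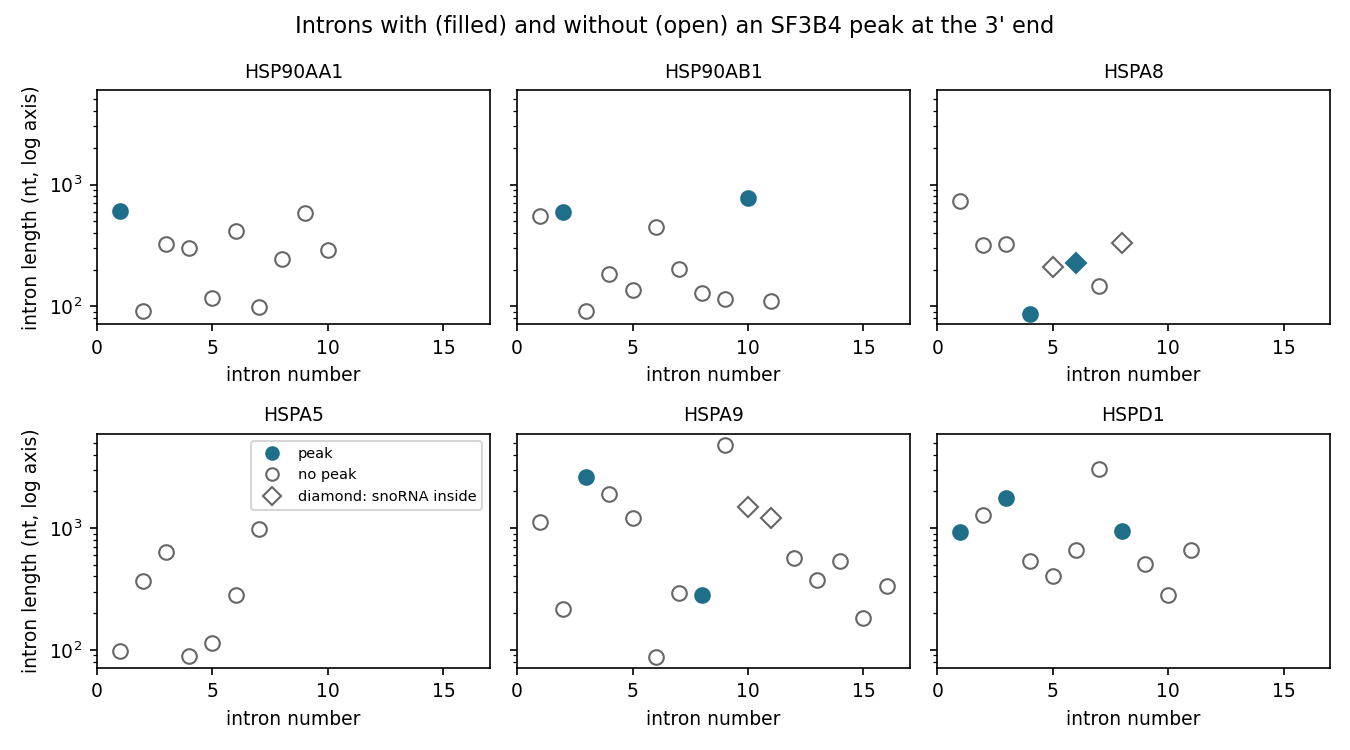
Introns of the reference transcript of each gene, by number from the 5' end and by length in nt on a log axis; filled symbols have an SF3B4 peak midpoint 10 to 60 nt upstream of the acceptor, open symbols do not, and diamonds hold a snoRNA. Bound introns make up 10 of 63 and span 87 to 2621 nt.

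The last 60 nt could be read for 15 of the 63 introns, of which 2 were bound, both in HSPA8. All 15 ended in AG. Pyrimidines (C or T) made up 43.3% of the last 30 nt of the bound HSPA8 intron 4 and 63.3% of those of the bound intron 6. In the 13 unbound introns they made up 56.7 to 73.3%. The median over 5836 readable introns of genes with a peak was 66.7%, and 1.66% of them had no more pyrimidines than intron 4. Intron 4 had fewer than any other readable intron of the 6 genes. Letters resembling a human branch point were searched on the RNA strand alone as CTNAC or CTNAT or TTNAC or TTNAT, where N is any base. At least 1 of these was found in the last 60 nt of 68.9% of the readable introns and of 14 of the 15 here. In intron 4 TTGAT, with its A 39 nt upstream of the exon, stood at the upstream edge of the peak, and TTAAT, with its A at 44 nt, stood just before it. Another match, TTAAC, had its A at 7 nt. In intron 6 the only match was TTTAT, whose A lay 13 nt upstream. A match describes letters and does not locate a branch point.

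Small nucleolar RNAs were embedded in 5 of the 63 introns, and 1 of these 5 had an SF3B4 peak at its end. Introns 5, 6 and 8 of HSPA8 hold SNORD14C, SNORD14D and SNORD14E, copies of the U14 box C/D snoRNA, and introns 10 and 11 of HSPA9 hold SNORD63 and SNORD63B. SNORD63B is listed under its Rfam name RF00154 in the annotation and was matched by position in RefSeq. Over all genes with an SF3B4 peak, 40 of 173 introns that hold a snoRNA were bound (23.1%). The 3 U14 copies are printed because they share one host and only the second has a peak in its intron. Capitals mark the letters TGATGA of the C box and CTGA of the D box, searched on the snoRNA strand.
SNORD14C (chr11:123059335-123059422): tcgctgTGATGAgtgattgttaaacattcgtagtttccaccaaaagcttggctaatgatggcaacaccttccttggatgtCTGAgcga
SNORD14D (chr11:123058909-123058995): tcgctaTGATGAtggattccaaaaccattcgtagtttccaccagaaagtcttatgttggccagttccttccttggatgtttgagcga
SNORD14E (chr11:123058077-123058161): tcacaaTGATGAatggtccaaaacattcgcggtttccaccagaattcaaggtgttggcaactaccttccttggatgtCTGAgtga

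All 3 copies hold TGATGA near the 5' end. Of all 943 annotated snoRNA genes, box C/D or not, 35.6% hold it at any position. CTGA, held by 71.0% of those genes, stands near the 3' end of SNORD14C and SNORD14E but nowhere in the annotated SNORD14D. At the same place SNORD14D reads TTGA, which the search for exact letters did not mark. The peak in intron 6 began 25 nt downstream of SNORD14D and did not overlap it, as the printed stretch of that intron shows. None of the 11 peaks overlapped a snoRNA, and neither did any of the other 3649 SF3B4 peaks, of 943 annotated snoRNA genes. Within 50 nt of one lay 36 of all 3660 peaks. Whether peaks on snoRNAs were taken out before deposit was not stated. The snoRNA end lay 78 nt from the exon in intron 6, 73 nt in intron 5 and 157 nt in intron 8, so the bound intron 6 and the unbound intron 5 were alike in this distance. It lay 951 nt away for SNORD63 and 312 nt for SNORD63B. Over introns with 1 snoRNA in genes with a peak, that distance had a median of 91.5 nt in the 40 bound (quartiles 76 and 159 nt) and 299.5 nt in the 130 unbound (quartiles 89 and 916 nt), a difference that was not tested.

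**Figure D4:**
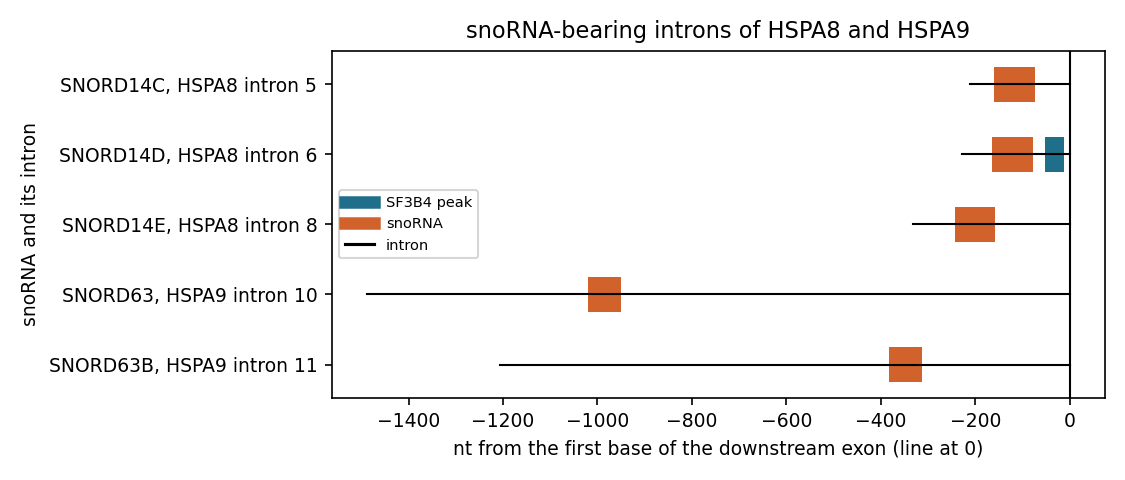
The 5 snoRNA-bearing introns of HSPA8 and HSPA9 (black lines) in nt from the first base of the downstream exon, with the snoRNA in orange and the SF3B4 peak in blue. The peak in HSPA8 intron 6 lies between SNORD14D and the exon, and the other 4 introns have none.

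Other genes of the chaperone network were taken from 6 lists of 100 genes in all. Of these, 23 had an SF3B4 peak (23.0%, against the 9.36% of all protein-coding genes). Co-chaperones of HSP90, which choose its clients or time its ATP cycle, had one in 7 of 12 cases, led by PTGES3 (p23, log2 fold 5.31), CDC37, which brings kinases to HSP90 (5.20), and FKBP4 (5.05). Subunits of TRiC, the cytosolic folding ring, and of prefoldin had one in 6 of 14, led by CCT6A (5.37), CCT3 (5.09) and CCT2 (4.88), and all 6 were TRiC subunits. Relatives of the 6 genes had one in 4 of 16, led by HSPA12A (4.55), HSPE1, which encodes the lid of the HSP60 barrel (4.20), and TRAP1, the mitochondrial HSP90 (4.17). The list of J-domain proteins, BAG proteins and further HSP70 partners had one in 3 of 34 genes (8.82%, near the 9.36% of all protein-coding genes). DNAJC5 (4.58) and BAG6 (4.34) led them. Folding factors of the endoplasmic reticulum had one in 2 of 13, P4HB (5.08) and CANX (4.47). Small heat shock proteins and heat shock factors had one in 1 of 11 (9.09%, also near the 9.36%), the transcription factor gene HSF1 (5.40). No G4PID peak was found in any of these 100 genes. Over all protein-coding genes 0.507% had one, so this count of 0 carries no information on them.

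At the level of introns, the members had 10 of 63 bound and the 100 other chaperone genes 32 of 920 (3.48%). In 2 lists outside the chaperones, glycolytic enzyme genes had 13 of 203 introns bound (6.40%) and translation factor genes 38 of 325 (11.7%). A peak was present in 8 of 17 glycolytic and 12 of 28 translation factor genes. The members and lists were chosen with earlier results of these data known, so these shares are descriptions, and the differences were not tested.

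**Figure D5:**
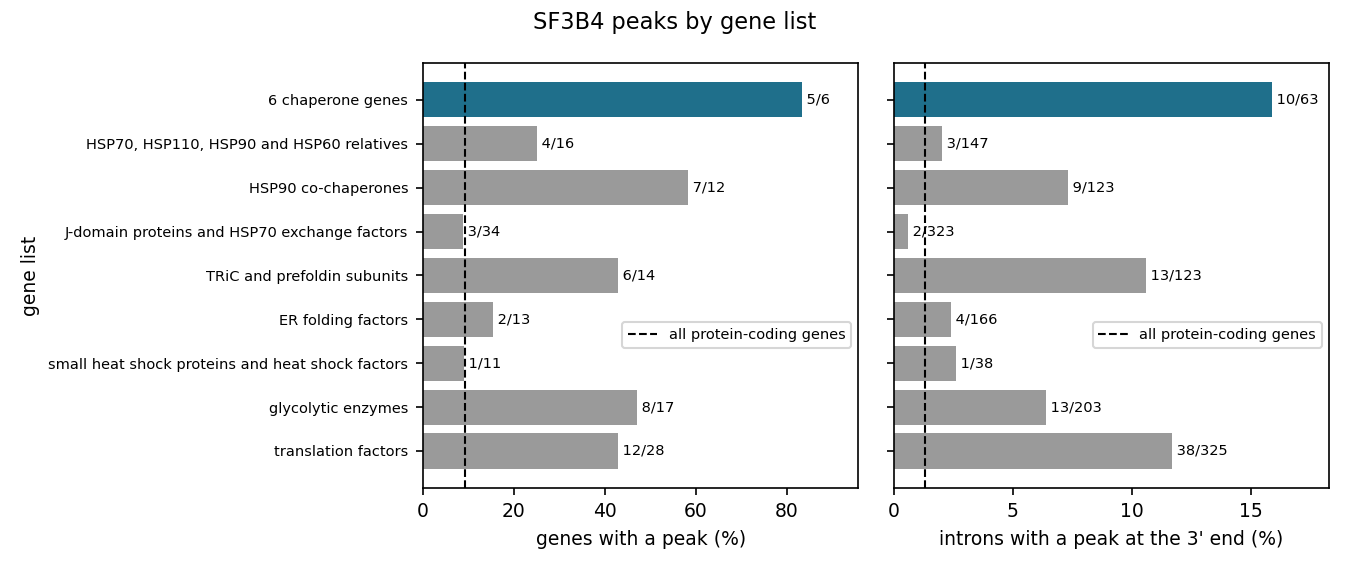
Percent of genes with an SF3B4 peak (left) and of reference introns with a peak at the 3' end (right) in each gene list, with counts beside the bars; the dashed lines mark all protein-coding genes (9.36% and 1.33%). The 6 chaperone genes, chosen with earlier results known, stand at 5 of 6 genes and 10 of 63 introns.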

How the data were processed

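The submitters' processing notes name cutadapt 3.4 and STAR 2.7.0d, and list both hg19 and hg38. How peaks were called and filtered, how reads that map to several places were treated and how libraries were joined is not stated in the labels. For each antibody 1 list without header was deposited by the authors, whose columns were read from their order and range as a −log10 p-value (at least 5.08 for SF3B4, at most 400) and a log2 fold over input (at least 3.00). Both are the authors' values and serve only to describe and rank peaks within a list. Positions were set against GENCODE release 29. The reference transcript had the best APPRIS level, then CCDS, then length. An intron was bound when a same-strand midpoint lay 10 to 60 nt upstream of its acceptor. A gene counted as having a peak when any midpoint lay in it on its strand. Sequence came from annotated transcripts, placed with 0 disagreements, since no genome was used here. The 6 genes have 44 annotated pseudogenes by name, and 0 of these had a peak. Wilson intervals cover counting error only. Distances and joins were tested on simulated data. Python 3.11.15, numpy 2.4.6, scipy 1.17.1 and matplotlib 3.10.9 were used. Members, lists and named genes (every peak of the members, and the leading genes of each list by fold) were chosen with earlier results of these data known.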

Additional observations from a re-analysis of the deposited data

How the results depend on the processing

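Of 15 alternatives, 11 left the 5 counts and shares within 1.5 times of the value given, or within its interval. Among these, a stricter rule for overlap with a snoRNA could only return the main count of 0. With only peaks of log2 fold 5 or more, 3 peaks in 3 genes (HSP90AB1, HSPA8 and HSPD1) and 3 bound introns were left, of 11, 5 and 10, by the construction of a stricter threshold. With snoRNAs extended by 50 nt on each side, 1 peak touched one, that beside SNORD14D. With log2 fold 4 or more, 8 peaks were left in the same 5 genes. A peak anywhere over the last 100 nt gave 11 bound introns, HSPA9 intron 13 being the one added, and the 73 introns of all basic transcripts gave 12. No paired analysis was possible because each list joins its libraries, and for the same reason no library could be left out. The read depth is unknown, so how far it limits the finding of peaks in HSPA5 was not tested.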
